A study of Homo sapiens with 6 samples.

Results

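MHC class I molecules carry peptides cut from the proteins of a cell to its surface, where CD8+ T cells and natural killer cells read them. The genes described are the heavy chains HLA-B, HLA-C, HLA-E and HLA-F, the light chain B2M, both subunits of the peptide transporter, TAP1 and TAP2, the loading factor TAPBP and the transcriptional activator NLRC5. They belong to a set of 10 genes taken by name from a table of 60624 genes, all of which were found. PolyA RNA had been sequenced from A549, a line derived from a human lung tumour, in 3 libraries of cells whose RAVER1 gene was deleted with CRISPR/Cas9 and 3 libraries of the parental (WT) cells. RAVER1 is an RNA-binding protein known as a partner of the splicing regulator PTBP1, and the comparison asks what its loss changes in RNA levels. The knockout libraries share the tag KO2, and the labels do not say whether it stands for 1 clone, so the tests measure the spread between these libraries only. No interferon or other agent is named for either group.

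In the class I pathway, proteasomes cut proteins, and inducible catalytic subunits change which peptides are made. TAP1 and TAP2 together pump peptides into the endoplasmic reticulum, where tapasin (the TAPBP product), calreticulin and the oxidoreductase PDIA3 hold an empty heavy chain with beta-2-microglobulin until a peptide binds. NLRC5 raises transcription of most of these genes through a conserved promoter module, and interferon gamma raises them through IRF1 among other factors. Tumour cells often show low levels of one or more of these components.

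The promoters below are printed to show where short motifs of known class I promoter elements lie in members that rose and in members that did not pass the test. RefSeq (GRCh38.p14) gave a promoter for 7 of the 10 members. Capitals mark exact matches on either strand to 4 short motifs, with overlapping matches merged. These are an ISRE-like pair of repeats (GAAANNGAAA), which interferon regulatory factors bind, the CRE core TGACG, the Y box core CCAAT, and an NF-kB palindrome (GGGGANTCCCC). Positions count from the transcript start, so that -1 is the base before it.
HLA-B: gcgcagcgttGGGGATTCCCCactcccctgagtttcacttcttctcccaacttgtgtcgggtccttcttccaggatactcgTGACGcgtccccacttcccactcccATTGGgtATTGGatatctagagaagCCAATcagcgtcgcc
HLA-C: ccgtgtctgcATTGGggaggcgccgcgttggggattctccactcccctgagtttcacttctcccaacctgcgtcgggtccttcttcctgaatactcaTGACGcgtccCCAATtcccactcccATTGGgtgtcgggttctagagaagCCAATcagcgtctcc
TAP1: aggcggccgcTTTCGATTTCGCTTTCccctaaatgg
TAP2: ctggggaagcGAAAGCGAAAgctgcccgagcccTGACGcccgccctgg
B2M: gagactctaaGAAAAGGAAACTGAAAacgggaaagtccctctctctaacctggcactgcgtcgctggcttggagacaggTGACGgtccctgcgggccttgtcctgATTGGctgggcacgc
TAPBP: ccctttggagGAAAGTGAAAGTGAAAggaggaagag

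The HLA-B stretch is chr6:31357221-31357366 on the minus strand, positions -187 to -42. That of HLA-C is chr6:31272134-31272294 on the minus strand, positions -202 to -42. For TAP1 it is chr6:32853813-32853848 on the minus strand, positions -144 to -109, and for TAP2 it is chr6:32838760-32838807 on the minus strand, positions -68 to -21. The B2M stretch is chr15:44711363-44711482 on the plus strand, positions -154 to -35, and that of TAPBP is chr6:33314073-33314108 on the minus strand, positions -30 to 6. HLA-B has 1 CRE core, at -106, followed by 3 Y box cores, and HLA-C has 1 CRE core, at -105, with 1 Y box core ahead of it, at -192, and 3 after it. NLRC5 acts through a module that holds such elements. In HLA-B the NF-kB palindrome lies from -177 to -167, and the HLA-C promoter has no exact match to it. TAP2, which rose, has 1 ISRE-like match, and the TAP1 promoter printed, TAPBP and B2M have 2 overlapping ones each. HLA-B and HLA-C, which also rose, have 0 exact matches to that motif. This does not show that their promoters lack a site for interferon regulatory factors, as one with other letters would stay in lower case. TAPBP has 0 CRE and 0 Y box cores, and another TAP1 promoter in the table has 0 matches to any of the 4 motifs. Among 35116 RefSeq promoters of the same length, 3.57% hold an ISRE-like match, 24.6% a CRE core, 34.6% a Y box core and 0.074% the NF-kB palindrome. The matches are letters in the reference sequence, and no binding was measured. Only exact letters were searched for, so an element that departs from them is not marked.

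RAVER1 itself, which checks the labels, had 110, 112 and 79 reads in the knockout libraries, against 2510, 1996 and 2285 reads in the parental libraries, and its edgeR adjusted p was 1.24e-18. Totals ran from 29811747 to 39910127 reads per library. The epithelial keratins KRT8 and KRT18 averaged 2267 and 1479 CPM (reads scaled to a library of 1000000, on TMM-scaled library sizes) in knockout cells, and 3761 and 2844 CPM in parental cells. EPCAM, an epithelial surface protein, averaged 1.12 CPM in knockout and 3.73 CPM in parental cells. All 6 epithelial markers were tested, 5 were lower in knockout cells and 1, KRT7, was higher (0.55, edgeR adjusted p 8.52e-09). Over all genes tested, 20.1% were lower and 21.3% higher. The part that the marker changes play in the class I values was not tested. Of 10 leukocyte markers, CD3E and NKG7 had 0 reads in all 6 libraries, and CD79A, CD14 and ITGAM, the 3 with enough reads to be tested, had edgeR adjusted p values of 0.512, 0.0704 and 0.95. CD14 was lower past the threshold under upper-quartile scaling, with a replicate block and without knockout replicate 1. The 10 markers summed to between 9.58 and 10.6 CPM in knockout libraries and between 10.1 and 11.7 CPM in parental libraries.

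TAP1, TAP2, HLA-B and HLA-C were higher in RAVER1 knockout cells, by 1.35-fold to 1.64-fold. HLA-E, B2M, TAPBP and NLRC5, which had higher CPM (not scaled to gene length), did not pass the test. In a quasi-likelihood fit across all 16652 genes tested (edgeR, with Benjamini-Hochberg adjustment and a threshold of 0.05), 4 of the 9 members with enough reads were higher and 0 were lower. DESeq2 put only 2 of them higher, TAP1 and TAP2, and limma-voom put 4 higher, with 0 lower in both. HLA-B (DESeq2 adjusted p 0.231) and HLA-C (DESeq2 adjusted p 0.09) did not pass in DESeq2. At an unadjusted p under 0.05 edgeR put 0 lower, and with a replicate block 5 were higher and 1, TAPBP, was lower (edgeR adjusted p 0.0468). Over all genes tested, 41.4% passed that threshold, with 21.3% higher and 20.1% lower in knockout cells, so a count of 4 in 9 is close to the background over both directions. The median log2 fold change of the 9 tested members was 0.086, against 0.0019 over all genes tested. The groups did not overlap in CPM for 6 of the 9, against 50.2% of all genes tested. The plot of CPM by library shows that the members that rose averaged 0.727 to 3.196 CPM in knockout cells, below the members that did not pass.

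**Figure D1:**
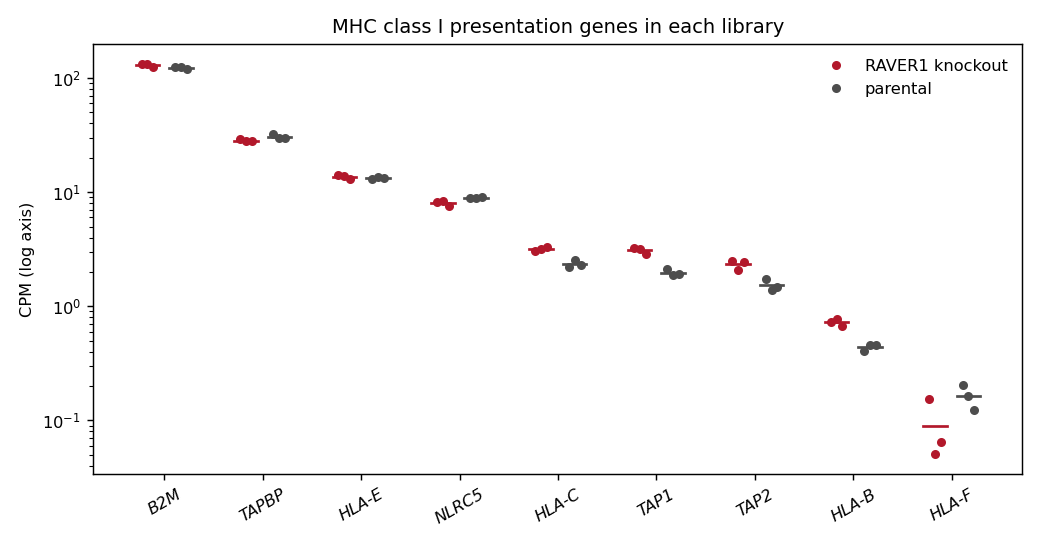
CPM of each class I presentation gene described, in each library, on a log axis, with knockout libraries (red) left of parental libraries (grey) and a line at each group mean. The groups are apart for HLA-C, TAP1, TAP2 and HLA-B, which lie between 0.408 and 3.32 CPM, and the points of the most abundant member, B2M, lie between 119.6 and 134.004 CPM with overlapping groups.

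Per kilobase of the gene length that the deposited table gives, B2M was the highest member, at 21.6 ± 0.79 CPM per kb in knockout and 20.3 ± 0.57 CPM per kb in parental cells (SD, n = 3 each). TAPBP stood at 5.60 and 6.05 CPM per kb and HLA-E at 4.67 and 4.54 CPM per kb in knockout and parental cells. Next came HLA-C, at 1.27 CPM per kb in knockout and 0.943 CPM per kb in parental cells, NLRC5 at 0.651 and 0.720 CPM per kb and TAP1 at 0.647 and 0.408 CPM per kb. TAP2 stood at 0.365 and 0.241 CPM per kb, HLA-B at 0.238 and 0.145 CPM per kb, and HLA-F at 0.0208 and 0.0380 CPM per kb. The order was the same in both groups, and neighbours in it overlapped over libraries only for NLRC5 and TAP1 in knockout cells. These levels rest on reads aligned to the reference alleles, and how many reads of the heavy chains of A549 were recovered was not measured, so levels of different heavy chains are not comparable as RNA amounts.

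HLA-E (ENSG00000204592, hg38 chromosome 6, 30489467 to 30494205, plus strand), whose product shows leader peptides of other heavy chains to the natural killer receptor NKG2A, was close to level. It had 14.1, 13.7 and 13.1 CPM in knockout libraries and 13.1, 13.5 and 13.2 CPM in parental libraries, a log2 fold change of 0.043 (SE 0.072, edgeR adjusted p 0.677).

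HLA-C (ENSG00000204525, chromosome 6, 31268749 to 31272130, minus strand), the classical heavy chain best known as a ligand of killer immunoglobulin-like receptors, had 119, 127 and 103 reads in knockout libraries, against 76, 78 and 75 reads in parental libraries. That is 3.08, 3.19 and 3.32 CPM in knockout and 2.22, 2.57 and 2.31 CPM in parental libraries, so every knockout library lay above every parental one. HLA-C rose 1.35-fold (log2 fold change 0.43, SE 0.13, edgeR adjusted p 0.014). The call was lost without parental replicate 1 (0.39, edgeR adjusted p 0.0586) or parental replicate 3 (0.41, edgeR adjusted p 0.0543), and in DESeq2 (adjusted p 0.09).

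HLA-B (ENSG00000234745, chromosome 6, 31269491 to 31357188, minus strand), the most variable classical heavy chain, had only 28, 31 and 21 reads in knockout libraries, against 14, 14 and 15 reads in parental libraries. Its levels were 0.724, 0.779 and 0.676 CPM in knockout and 0.408, 0.461 and 0.462 CPM in parental libraries, with no overlap. HLA-B rose 1.64-fold, with a log2 fold change of 0.72 (SE 0.26, edgeR adjusted p 0.0353). The call was lost when any 1 of the 6 libraries was left out, with values of 0.66 to 0.76 and edgeR adjusted p values of 0.0568 to 0.114. It was also lost in DESeq2 (adjusted p 0.231) and without the low-count filter (edgeR adjusted p 0.0632).

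HLA-F (ENSG00000204642, chromosome 6, 29722775 to 29738528, plus strand), a heavy chain seen mostly on activated cells, had 6, 2 and 2 reads in knockout and 7, 5 and 4 reads in parental libraries. These counts were under the low-count filter, and the gene was not tested. Fits that kept it gave a log2 fold change of -0.83 without the filter (edgeR adjusted p 0.455) and -0.86 in DESeq2 (adjusted p 0.582).

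Heavy chains are near copies of one another, so part of their reads can match several genes. Of the distinct 50-base windows in GENCODE 29 transcripts, 5.38% of those of HLA-C and 2.72% of those of HLA-B also occur in transcripts of another gene, chiefly windows shared between both. The shares were 4.34% for HLA-E, 0.977% for HLA-F, and 0 for B2M and NLRC5. HLA-B and HLA-C also share 35 exonic bases on the same strand, and a pseudogene on the opposite strand overlaps 542 exonic bases of HLA-B. How the authors counted such reads is not given in the sources used here, and the values of these genes are uncertain to that extent.

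B2M (ENSG00000166710, chromosome 15, 44711487 to 44718877, plus strand), the light chain that every class I molecule needs, had 133.6, 134.004 and 125.5 CPM in knockout libraries and 125.2, 125.8 and 119.6 CPM in parental libraries. Knockout replicate 3 lay inside the parental range. The log2 fold change was 0.086 (SE 0.044, edgeR adjusted p 0.136), and the upper end of its 95% interval was 0.17.

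Of the members, TAP1 had the lowest adjusted p. TAP1 (ENSG00000168394, chromosome 6, 32845209 to 32853978, minus strand) had 3.23, 3.19 and 2.90 CPM in knockout libraries, against 2.101, 1.88 and 1.91 CPM in parental libraries. It rose 1.59-fold, with a log2 fold change of 0.66 (SE 0.14, edgeR adjusted p 0.000779), and passed in each of 14 alternative fits, between 0.63 and 0.72.

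Its partner TAP2 (ENSG00000204267, chromosome 6, 32821833 to 32838780, minus strand) had 2.48, 2.06 and 2.45 CPM in knockout libraries and 1.75, 1.38 and 1.48 CPM in parental libraries, again without overlap. The rise was 1.51-fold (log2 fold change 0.59, SE 0.17, edgeR adjusted p 0.00751), and it passed in the same 14 fits, in DESeq2 with an adjusted p of 0.0499. Of the 50-base windows of TAP2, 31.3% also occur in AL669918.1, a gene on the same strand that is listed at 0 reads in all 6 libraries. It shares 2064 of the 6390 exonic bases of TAP2. How reads in that stretch were counted is not given in the sources used here, and the TAP2 level is uncertain to that extent.

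TAPBP (ENSG00000231925, chromosome 6, 33299694 to 33314387, minus strand) had 29.02, 27.8 and 28.2 CPM in knockout libraries, against 32.4, 29.9 and 29.6 CPM in parental libraries. The groups did not overlap, but the log2 fold change of -0.11 (SE 0.060) did not pass (edgeR adjusted p 0.148). NLRC5 (ENSG00000140853, chromosome 16, 56989485 to 57083531, plus strand), the activator of class I promoters, had 8.25, 8.42 and 7.54 CPM in knockout libraries, against 8.84, 8.82 and 9.11 CPM in parental libraries. Every knockout library was lower, and the log2 fold change was -0.14 (SE 0.086, edgeR adjusted p 0.206).

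**Figure D2:**
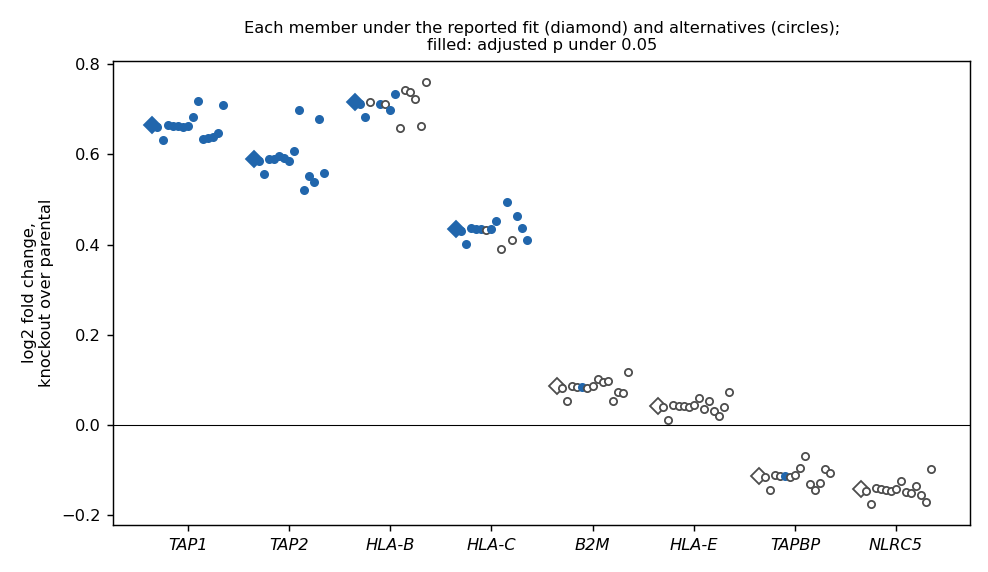
Log2 fold change, knockout over parental, of each tested class I gene described, in the reported fit (diamond) and in the alternative fits (circles), in the order scalings, filters, replicate block, other tools, no chromosome 2 genes and left-out libraries; filled symbols passed an adjusted p under 0.05. TAP1 stays filled between 0.63 and 0.72, while HLA-B is open in 8 of 13 alternatives.

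The rise in TAP1 and TAP2 sat in a short run of genes that moved unequally. TAP1, TAP2 and the inducible proteasome subunit genes PSMB8 and PSMB9 lie within the class II part of the MHC, and RefSeq puts the starts of TAP1 and PSMB9 488 bases apart on opposite strands. PSMB9 had 71, 81 and 62 reads in knockout libraries, against 29, 31 and 39 reads in parental libraries, and rose 1.91-fold (log2 fold change 0.94, SE 0.19, edgeR adjusted p 0.000466). PSMB8, which lies between TAP2 and TAP1, had 81, 69 and 50 reads in knockout and 67, 62 and 50 reads in parental libraries, at -0.016 (SE 0.17, edgeR adjusted p 0.953). HLA-DMB, a class II peptide editor named after its value was seen, had 3, 5 and 3 reads in knockout libraries, against 41, 36 and 32 reads in parental libraries. It passed the low-count filter on its parental reads alone, so it had to differ to be tested, and its fitted log2 fold change of -3.44 is given as a description. It was not tested with at least 1 CPM in 3 libraries. The bromodomain gene BRD2, farther along, stood at 0.061 (edgeR adjusted p 0.424). Exons of TAP1 and PSMB9 overlap those of the noncoding gene PSMB8-AS1, which had 0, 1 and 2 reads in knockout and 1, 0 and 2 reads in parental libraries.

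**Figure D3:**
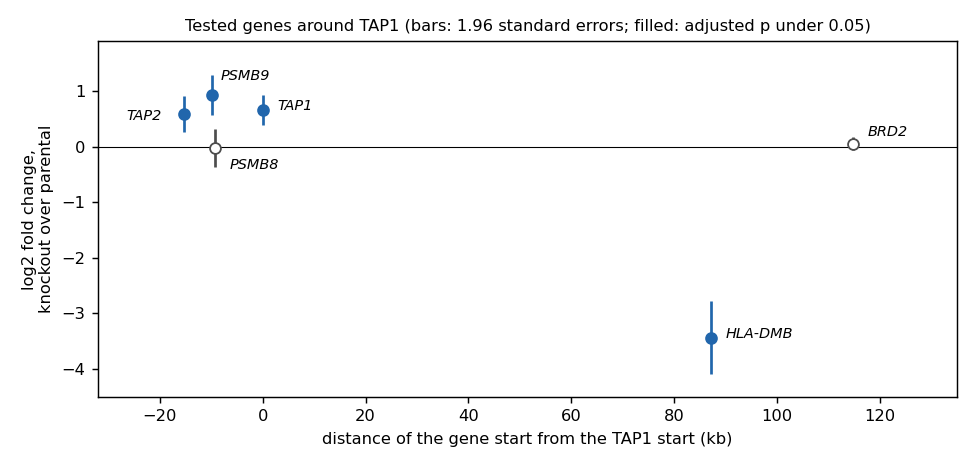
Log2 fold change, knockout over parental, of the 6 tested genes whose starts lie within 250 kb of the TAP1 start, against the distance of their outermost start in GENCODE 29; bars are 95% intervals from the standard error, and filled points passed an adjusted p under 0.05. TAP2, PSMB9 and TAP1 lie above 0, PSMB8 and BRD2 near 0 and HLA-DMB at -3.44.

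Across chromosome 6 from 29 to 34 megabases, the region that holds 7 of the tested members, 91 genes were tested, 7 were higher and 8 lower, and the median log2 fold change was -0.016. That is 16.5% past the threshold, against 39.6% of the 692 genes tested elsewhere on the chromosome, and whether the shares differ was not tested. The median gene had 6.03 CPM inside the region and 10.6 CPM outside it, and the part that this lower level plays was not tested. Of the 7 higher genes, 4 were HLA-B, HLA-C, TAP1 and TAP2 and another was PSMB9, and the remaining ones were WDR46 (0.30) and CUTA (0.19), named after their values were seen.

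Among the other components that feed the pathway, inducible proteasome genes moved in opposite directions. Of the 5 listed and tested, 1 was higher and 3 were lower, with a median log2 fold change of -0.15, against 21.3% higher, 20.1% lower and a median of 0.0019 over all genes tested. PSMB9 was the one that rose. PSMB10, the third inducible catalytic subunit, averaged 2.78 ± 0.12 CPM in knockout and 5.41 ± 0.31 CPM in parental cells (SD, n = 3 each), and fell by 0.96 on the log2 scale (SE 0.12, edgeR adjusted p 1.87e-06). The proteasome activator subunits PSME1 (-0.23, edgeR adjusted p 0.000656) and PSME2 (-0.15, edgeR adjusted p 0.00663) fell slightly, and the PSME2 call was lost without knockout replicate 3 (-0.14, edgeR adjusted p 0.0555). PSMB5, PSMB6 and PSMB7, the constitutive subunits that the inducible ones replace, stood at 0.10, -0.030 and 0.0014, and did not pass, with edgeR adjusted p values of 0.0782, 0.632 and 0.983. PSMB5 was higher past the threshold with the replicate block, without chromosome 2 genes and without parental replicate 1 (0.14).

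Genes of peptide trimming and loading also moved both ways. All 12 listed were tested, 2 were higher and 5 lower, and the median was -0.053, where 41.4% of all genes passed in either direction. The 5 became 3 without parental replicate 2 or knockout replicate 3, where CANX and PDIA3 lost their calls. ERAP1, the aminopeptidase that trims peptides in the endoplasmic reticulum, averaged 37.1 ± 1.1 CPM in knockout and 32.1 ± 0.38 CPM in parental cells (SD, n = 3 each), a rise of 0.21 (SE 0.055, edgeR adjusted p 0.00502). Its relative ERAP2 was near 2 CPM in both groups, at 0.025 (SE 0.16, edgeR adjusted p 0.923). TAPBPL, a tapasin relative that edits peptides outside the loading complex, fell by 0.55 (SE 0.11, edgeR adjusted p 0.000588), and the chaperone HSPA5 fell by 0.20 (edgeR adjusted p 0.000277). UGGT1, a glucosyltransferase that returns suboptimally loaded heavy chains to calreticulin, rose by 0.40 (edgeR adjusted p 3.96e-07). UGGT1 lies on chromosome 2, where the 1125 genes tested had a median log2 fold change of 0.42, and its part in that shift was not tested. The translocon subunit SEC61A1 (-0.050) and the peptidase THOP1 (0.081) did not pass.

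**Figure D4:**
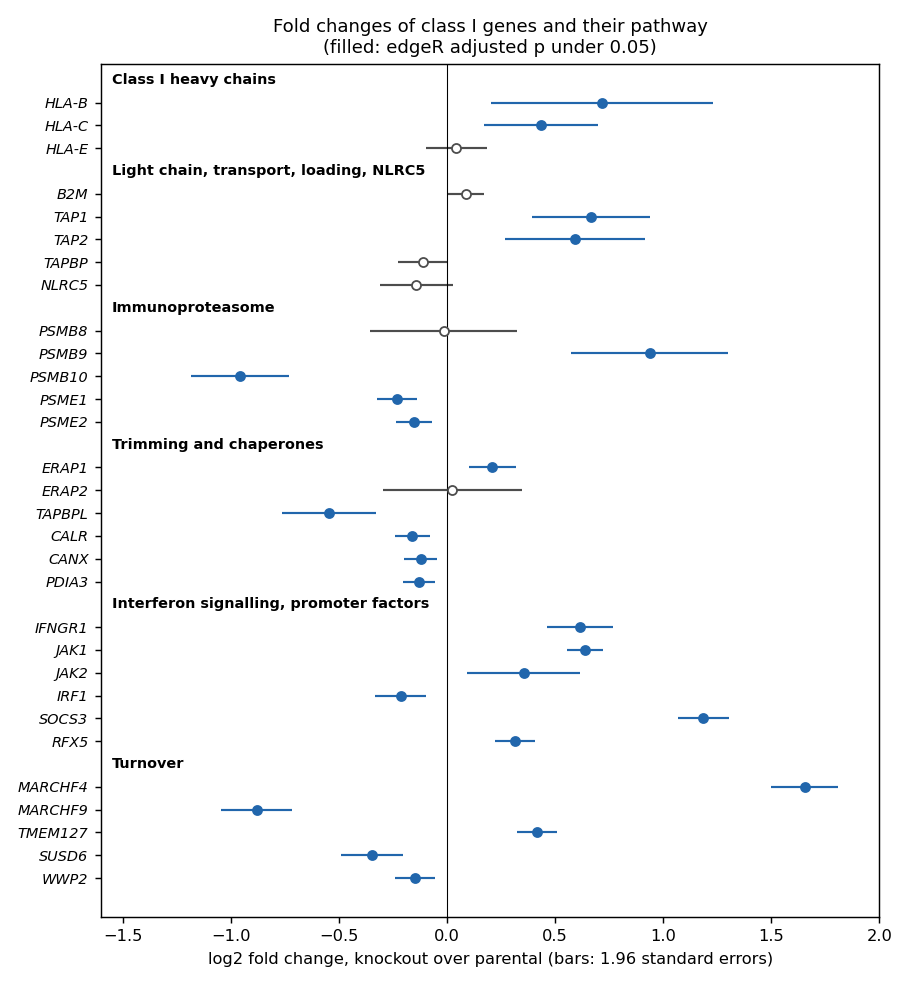
Log2 fold change, knockout over parental, of the tested class I genes and of genes from the pathway lists, in blocks by role; bars are 95% intervals from the standard error, and filled points passed an adjusted p under 0.05. HLA-B, HLA-C, TAP1, TAP2 and PSMB9 lie to the right of 0, PSMB10 at -0.96 to the left, and MARCHF4 and MARCHF9 at 1.65 and -0.88.

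Of the signalling genes upstream of class I transcription, 5 of 10 interferon receptors, kinases and inhibitors were higher, with a median of 0.20, where 21.3% of all genes were higher, and the other 5 did not pass in edgeR. Of the 10, 3 were higher without parental replicate 1 or knockout replicate 3, where JAK2 and PTPN2 lost their calls. IFNGR1, the ligand-binding chain of the interferon gamma receptor, averaged 23.4 ± 1.3 CPM in knockout and 15.3 ± 1.6 CPM in parental cells (SD, n = 3 each), and its log2 fold change was 0.62 (SE 0.078, edgeR adjusted p 3.22e-06). The kinase JAK1, which the receptor uses, rose by 0.64 (SE 0.042, edgeR adjusted p 5.89e-10), and SOCS3, an inhibitor of cytokine signalling, by 1.19 (SE 0.060, edgeR adjusted p 1.15e-11). JAK2 rose by 0.35 (edgeR adjusted p 0.0403), a call lost in DESeq2, limma-voom and upper-quartile scaling. It was also lost without parental replicate 1 (0.27) or 2 (0.37) and without knockout replicate 2 (0.23) or 3 (0.34). TYK2 (0.027) and IFNAR1 (0.024) did not pass and changed sign under upper-quartile scaling. TYK2 also changed sign without parental replicate 2 or knockout replicate 1, and IFNAR1 without parental replicate 1 or 3 or knockout replicate 2.

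Factors that bind class I promoters, with the PRC2 complex that can silence them, had 5 of 18 higher and 3 lower, with a median of 0.037, a count close to the 41.4% of all genes. RFX5, the DNA-binding subunit of the factor that NLRC5 joins on promoters, rose by 0.31 (SE 0.046, edgeR adjusted p 1.97e-05). Of its partners in that factor, RFXANK fell by 0.23 (edgeR adjusted p 0.00553) and RFXAP did not pass (-0.27, edgeR adjusted p 0.231). CREB1 rose by 0.35 (edgeR adjusted p 0.000744). CREB1 lies on chromosome 2, whose upward shift is given above. IRF1, which binds ISRE elements, averaged 27.1 CPM in knockout and 31.4 CPM in parental cells and fell by 0.21 (SE 0.060, edgeR adjusted p 0.00765), a call lost without parental replicate 3 (-0.18, edgeR adjusted p 0.0558). EZH2, the catalytic subunit of PRC2, fell by 0.29 (edgeR adjusted p 0.000305). SUZ12 (-0.051) and NFKB1 (-0.042) did not pass, while RELA, another NF-kB subunit, rose by 0.21 (edgeR adjusted p 0.000706). RFXANK, RFXAP and RELA were named after their values were seen. CIITA, the class II counterpart of NLRC5, had 3, 10 and 7 reads in knockout and 6, 6 and 1 reads in parental libraries and was not tested.

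Genes known to act on how much class I stays at or is reached at the cell surface all passed the threshold, in both directions, with 2 of 7 higher and 5 lower, where 41.4% of all genes passed. DESeq2 put 2 higher and 3 lower, and 2 were lower without parental replicate 1. The run without chromosome 2 genes left out both genes that rose, so it could not call them, and it put 3 of the other 5 lower. SPPL3 lost its call without any 1 library other than knockout replicate 1 (-0.10 to -0.13) and without the filter, and B3GNT5 without any 1 parental library or knockout replicate 1 (-0.17 to -0.31). Both also lost it in DESeq2 and without chromosome 2 genes. WWP2 lost its call without parental replicate 1 or knockout replicate 2 or 3 (-0.12 to -0.14). MARCHF4, a membrane ubiquitin ligase that removes class I from the surface when overexpressed, averaged 29.1 ± 2.2 CPM in knockout and 9.24 ± 0.78 CPM in parental cells (SD, n = 3 each), and its log2 fold change was 1.65 (SE 0.080, edgeR adjusted p 5e-12). Its relative MARCHF9 averaged 8.53 CPM in knockout and 15.7 CPM in parental cells and fell by 0.88 (SE 0.085, edgeR adjusted p 9.5e-08). TMEM127 (0.41, edgeR adjusted p 7.28e-07) rose and SUSD6 (-0.35, edgeR adjusted p 0.000708) fell, and their products act in a complex with WWP2 that sends class I to degradation. MARCHF4 and TMEM127, the members of this list that rose, both lie on chromosome 2. Surface class I was not measured.

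The other class I-like molecules and ligands of the natural killer receptor NKG2D had 1 of 11 tested genes higher and 6 lower, with a median of -0.20, where 20.1% of all genes were lower, and 4 of the 15 listed had too few reads. RAET1G rose by 1.04 (SE 0.33, edgeR adjusted p 0.0157) from few reads, 35, 30 and 28 in knockout libraries, against 7, 21 and 12 in parental libraries. That call was lost without parental replicate 1 (0.69) or 3 (0.95) and in DESeq2 (adjusted p 0.073), and the value was 1.57 without parental replicate 2. With at least 1 CPM in 3 libraries RAET1G was not tested, and 0 of the 9 genes tested were higher. ULBP2, another NKG2D ligand, fell by 0.65 (SE 0.17, edgeR adjusted p 0.00429), and FCGRT, the neonatal Fc receptor, which also pairs with beta-2-microglobulin, fell by 0.47 (edgeR adjusted p 2.24e-05). ULBP1 stood at -0.42 (edgeR adjusted p 0.0349), and lost its call in DESeq2 and without any 1 library other than knockout replicate 3 (-0.30 to -0.45). ULBP3 (0.073) and MICB (0.22) did not pass.

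HLA-B had the largest log2 fold change of the members in the reported fit. Without parental replicate 1, TAP1 (0.72) and TAP2 (0.70) lay above it (0.66), and without knockout replicate 2, TAP2 (0.68) did (0.66). Its log2 CPM over the 6 libraries followed most closely those of ANKDD1A (Pearson r 0.999), MAPK8IP2 (0.997) and C19orf12 (0.997), among all genes tested. These genes rose by 0.96, 0.45 and 0.23 and lie on chromosomes 15, 22 and 19. The 6 points fall into the same groups of libraries for all of them, so the likeness is a description and carries no test.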

How the data were processed

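PolyA RNA from 3 RAVER1 knockout and 3 parental A549 libraries was extracted with TRIzol and made into stranded libraries, per the labels' protocols. The authors used cutadapt 2.8, HISAT2 2.1.0, SAMtools 1.10, featureCounts 2.0.0 and hg38, per the submitters' processing notes. Values in the deposited file are unnormalized counts of reads for each gene and library, beside a gene length in bases. Annotation release, strand setting and the rule for multi-mapping reads: not given in the sources used here. Replicates differed by more than counting noise in every pair (chi-square per degree of freedom 2.41 to 8.86).

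Counts were fitted with edgeR 4.0.16 (R 4.3.3): filterByExpr with its minimum count of 10, TMM scaling, quasi-likelihood F-test without covariates, Benjamini-Hochberg adjustment over 16652 genes. Standard errors came from the F statistic, and 95% intervals from a normal approximation. The step was tested on simulated data with few genes changed, equally up and down, so that run does not cover changes as wide as these. Positions and transcripts came from GENCODE 29, of the same build, joined by gene identifier for 58437 rows. Results of 1 member and of 1 listed gene, and those that need them, are not reported here. Members and lists were chosen with earlier results of these data known. Named were the other members, up to 4 genes past the threshold and 2 others of each pathway list, a fixed set, and the 3 genes most like the member that changed most. Alternatives were RLE and upper-quartile scaling, 2 other filters, a replicate block, DESeq2 1.42.0, limma-voom 3.58.1, each library left out, a threshold of 0.01, and, added after the data were seen, no chromosome 2 genes.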

Additional observations from a re-analysis of the deposited data

How the results depend on the processing

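The number of members past the threshold was 4 in the reported fit, where 6886 genes passed. It was 2 in DESeq2 (5849 genes) and 2 at an adjusted p under 0.01 (5076 genes). With 1 library left out it ran from 2 to 3, while 5827 to 7456 genes passed. It was 3 without the low-count filter (7072 genes) or with at least 1 CPM in 3 libraries (6380 genes), where HLA-B was not tested. TAP1 and TAP2 passed in all 14 alternative fits, and RLE scaling, upper-quartile scaling, limma-voom and the run without chromosome 2 genes also left 4 members past the threshold. Genes past the threshold were 39.6% on chromosome 6 outside 29 to 34 megabases, against 16.5% inside. Of the 38 calls in the 6 pathway lists, 31 to 35 held with 1 library left out and 33 held in DESeq2. In the other alternatives that kept chromosome 2 genes, 36 to 38 held. Without chromosome 2 genes, 58 of the 63 genes were tested and 31 calls held. That run could not call genes of that chromosome, UGGT1, CREB1, MARCHF4 and TMEM127 among them. Without the filter there were 37 calls, and with the block 39. The labels do not say whether the replicate numbers pair the libraries, and the values do not settle it. Same-numbered libraries correlated in their deviations at 0.129, 0.0292 and 0.0142, and differently numbered ones at -0.0931 to 0.0667. Not every library correlated best with its own number. With the replicate block, 8346 genes passed, against 6886, and 6 members, B2M (0.085, edgeR adjusted p 0.0146) and TAPBP (-0.11, edgeR adjusted p 0.0468) among them. Few reads of HLA-B and HLA-F limit what can be detected for them.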

Other observations

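MHC class II genes were almost silent in both groups. Of 12 listed, 7 had 0 reads in all 6 libraries, and HLA-DMB, whose reads are given above, was the only 1 tested in the reported fit, on its parental reads. Of 12 genes classically induced by interferon gamma, CXCL9, CXCL10, CXCL11 and GBP5 had 0 reads in every library. The 5 tested had 1 higher and 2 lower, where 21.3% of all genes tested were higher and 20.1% lower. Without parental replicate 3, 1 was lower, as IRF1 lost its call. GBP2, a guanylate-binding protein, averaged 0.874 ± 0.16 CPM in knockout and 3.75 ± 0.23 CPM in parental cells (SD, n = 3 each) and fell by 2.08 (SE 0.17, edgeR adjusted p 7.73e-09). CD274, which encodes the checkpoint ligand PD-L1, rose by 0.75 (SE 0.22, edgeR adjusted p 0.0101), a call lost in DESeq2 (adjusted p 0.0686). GBP1 (0.031) and WARS1 (-0.074) did not pass in the reported fit, and WARS1 passed with the replicate block (edgeR adjusted p 0.0191). GBP2, CD274, GBP1 and WARS1 were named after their values were seen.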
